A study of Rattus norvegicus with 24 samples.

Results

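The response described here is the one that male and female rats shared at the highest of the estradiol doses tested. Abdominal mammary glands of Sprague-Dawley rats were profiled on Affymetrix arrays at postnatal day 33, after 17β-estradiol had been infused under the skin from weaning at day 21 by osmotic pumps. The comparison took the 6 arrays at 10 µg/kg/day (3 female, 3 male) against the 6 arrays from rats whose pumps delivered 0 µg/kg/day (3 female, 3 male), which are 12 of the 24 arrays of the series. The other 12 arrays hold the same sexes at 0.1 and 1 µg/kg/day. RNA came from whole frozen gland pairs of otherwise intact rats of 1 strain, so each array averages ducts, fat, vessels and other stroma. The labels do not say whether an array is 1 animal, and the p-values below measure the spread between arrays, which may be partly technical.

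Estradiol acts through estrogen receptors, which are transcription factors that bind DNA when the hormone is present. In the mammary gland the receptor sits in part of the luminal cells and in stromal cells, and its action passes to neighbouring cells through secreted factors such as amphiregulin, an EGF family ligand, and through progesterone receptor. The gland of a prepubertal rat is a small ductal tree in a large fat pad, and the ducts elongate and branch when ovarian estrogen rises at puberty. Milk protein genes are normally driven later, by prolactin through STAT5, in secretory luminal cells.

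Each value is the deposited log value of a probe set, taken as log2, and a difference of 1 is then a fold of 2. The deposited values are signed and lie around 0 within each sex: for the probe sets from the 5th to the 95th percentile the median over a sex's 12 arrays lay between -0.0843 and 0.0646 in females and between -0.0848 and 0.0998 in males. The step that placed them there is not stated, so no absolute level and no level difference between the sexes was read from them. Differences between doses within a sex take it that this step moved all arrays of a sex alike. Whether a gene or a cell type is expressed above background was not judged. "Called" means a Benjamini-Hochberg adjusted p below 0.05 in limma, over all 31042 probe sets tested, in a fit with sex as a block. "The same way in every array" means that all 3 arrays at 10 lay above, or all below, all 3 arrays at 0 of their sex, in both sexes and in the same direction. Differences are 10 minus 0 with their standard error (SE), from 12 arrays unless stated.

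In all, 3128 probe sets were called, which is 10.1% of those tested. Of these, 1329 (4.28%) were higher at 10 and 1799 (5.8%) were lower. These shares are the background for every count of list members below, and in fits with fewer calls the background is smaller. A further requirement, that every array move the same way, was met by 2408 probe sets (7.76%), of which 1005 (3.24%) were higher and 1403 (4.52%) lower. Both conditions held for 2051 probe sets (6.61%). They comprised 829 higher (2.67%), for 534 genes, and 1222 lower (3.94%), for 828 genes. The 2051 were 65.6% of all called probe sets, and in 0 of the 3128 called probe sets did the mean differences of the sexes have opposite signs. The fit has no term for a sex difference, so opposite changes enter its residual spread. Such a call was thereby all but impossible at this threshold, and the 0 is no evidence of a shared direction. The median difference over all tested probe sets was 0.0022. Large changes were few: 154 probe sets rose and 140 fell by at least 2-fold.

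Some arrays stood apart in transcripts of other tissues, and these values belong beside what follows. Averaged over 19 hepatocyte markers, 3 control arrays were high, namely female replicate 1 (2.50) and male replicates 2 and 3 (1.51 and 2.66), while the other 9 arrays lay between -0.74 and -0.05. Averaged over 26 skeletal muscle markers, the arrays lay between -3.25 (female replicate 1 at 0) and 1.41 (male replicate 1 at 0). In males the beta-actin 3′ minus 5′ probe set difference, a sign of RNA integrity, was -0.56, -0.06 and -0.28 at 0 and -0.02, 0.16 and 0.05 at 10, and in females it stayed between -0.05 and 0.06. Without the 3 control arrays rich in hepatocyte transcripts 921 probe sets were called (484 higher, 437 lower), with hepatocyte and muscle means as covariates 1118 (611 higher, 507 lower), and with the beta-actin difference as a covariate 1943 (777 higher, 1166 lower). Without male replicate 11 or 12 at 10 there were 1988 and 1979. The part of tissue composition and of RNA quality in the results was not tested beyond these fits. Each such fit also has fewer arrays or more terms than the 12-array fit. The fit without the 3 control arrays keeps only 1 male control, replicate 1. That array had the lowest beta-actin difference (-0.56) and the lowest mean of luminal markers (-1.11) of the 12. Calls kept or lost in that fit, here and below, rest in males on this 1 control.

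**Figure D1:**
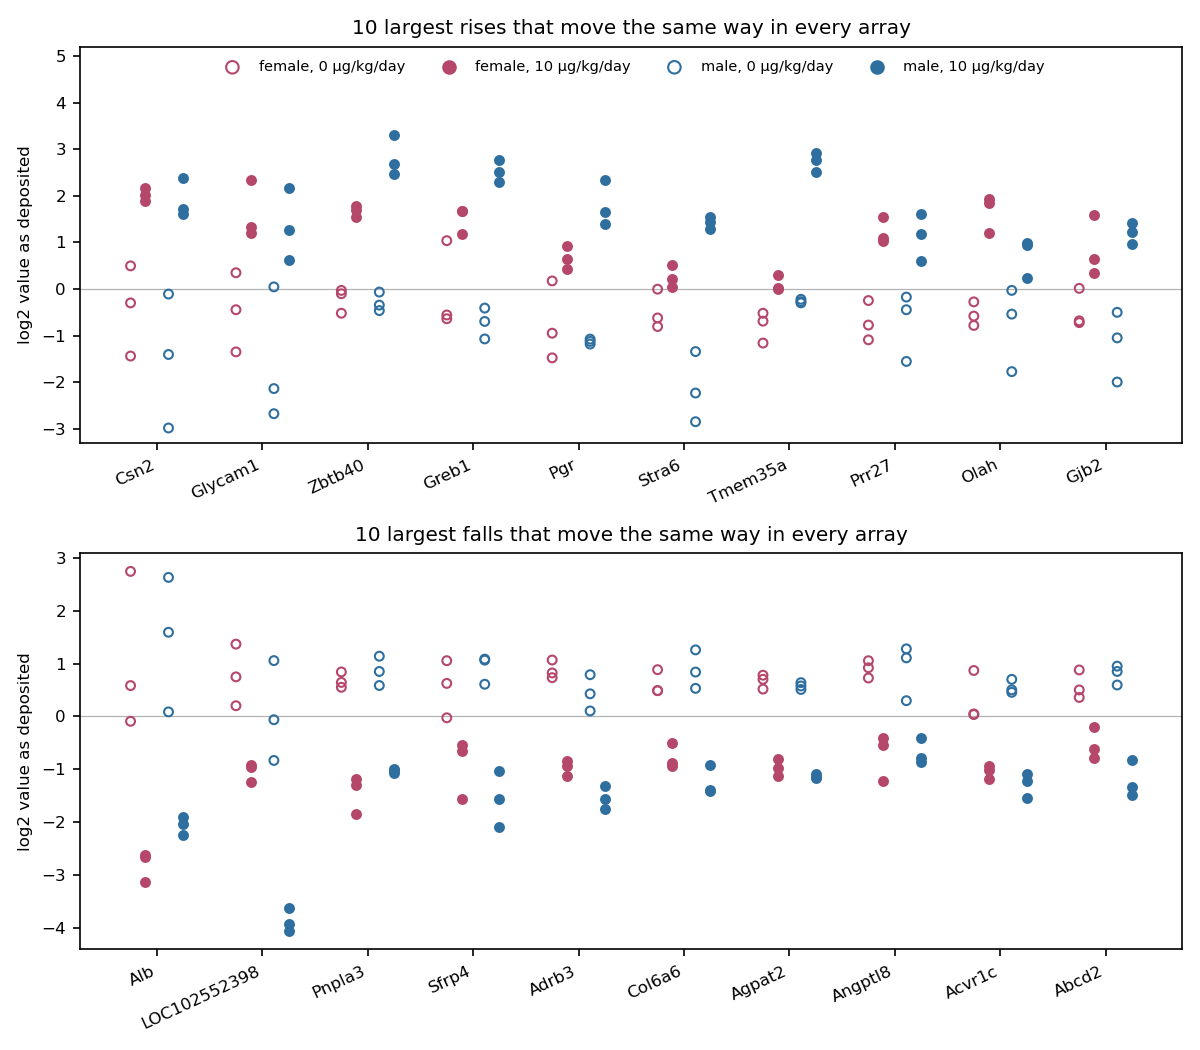
Values of the 10 largest rises (upper panel) and 10 largest falls (lower panel) among genes called and moving the same way in every array; the vertical axis is the log2 value as deposited, open symbols are arrays at 0 and filled symbols arrays at 10, females red and males blue, 3 arrays per group. In each gene the filled symbols of a sex lie entirely above (upper panel) or below (lower panel) the open symbols of that sex, as the choice of genes required; Csn2 reached 1.62 to 2.39 in the arrays at 10 and lay at or below 0.50 in those at 0.

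Among named genes moving the same way in every array, the largest rise was that of Csn2, which encodes beta-casein, the main milk casein. Its values were -0.30, -1.44 and 0.50 in females at 0 and 2.16, 2.03 and 1.88 in females at 10. In males they were -2.99, -0.11 and -1.41 at 0 and 1.62, 1.72 and 2.39 at 10. The arrays at 10 were closely spaced in both sexes and the spread lay among the controls, most of all in male replicate 1. The difference was 2.92 ± 0.45, a 7.59-fold rise (adjusted p = 0.00218). Glycam1, a mucin-like protein secreted in milk, rose by 2.52 ± 0.48 (adjusted p = 0.00679), and its call was lost with the tissue covariates (2.02, adjusted p = 0.134). Olah, the thioesterase that releases medium-chain fatty acids for milk fat, rose by 1.86 ± 0.28. Prr27, a gene that lies among the casein genes, rose by 1.89 ± 0.25. Gjb2, which encodes the gap junction protein connexin 26, rose by 1.86 ± 0.31.

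Greb1 and Pgr, textbook targets of the estrogen receptor, stood among the 10 largest rises. Greb1, which is also a cofactor of the receptor, was at -0.64, 1.04 and -0.56 in females at 0 and at 1.19, 1.67 and 1.68 at 10. In males it was at -1.07, -0.41 and -0.70 at 0 and at 2.78, 2.52 and 2.30 at 10. The gap between doses was wide in males, while in females replicate 2 at 0 came close to the lowest array at 10. Greb1 rose by 2.41 ± 0.36 (adjusted p = 0.00172). Pgr, the progesterone receptor, rose by 2.17 ± 0.33 (adjusted p = 0.00192), from between -1.48 and 0.17 in females and between -1.18 and -1.08 in males at 0, to between 0.44 and 0.92 in females and between 1.40 and 2.35 in males at 10. Neither call held without the 3 control arrays (adjusted p = 0.0565 for Greb1 and 0.0606 for Pgr) or with tissue covariates (0.0536 and 0.0646), while the differences stayed between 1.69 and 2.17.

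The other 3 rises were of genes with less settled roles in the gland. Zbtb40, a zinc finger protein, rose by 2.51 ± 0.23 (adjusted p = 8.74e-05), from -0.52, -0.03 and -0.10 to 1.56, 1.78 and 1.70 in females and from -0.46, -0.07 and -0.35 to 2.69, 3.32 and 2.47 in males. The 2 probe sets of Zbtb40 disagreed, since the other one was nearly unchanged (0.016 ± 0.092). All that is said of Zbtb40 here rests on the 1 probe set that rose. Stra6, the cell surface receptor for retinol bound to its carrier, rose by 2.15 ± 0.47 (adjusted p = 0.0137), a call that was lost without the 3 control arrays (2.24, adjusted p = 0.0737), and all 5 of its probe sets were higher. Tmem35a, a chaperone of nicotinic receptors in nerve cells, rose by 1.95 ± 0.33 (adjusted p = 0.00333). In Stra6 and Tmem35a the male rise was larger by 2.83 ± 0.45 and 2.11 ± 0.22, and this sex difference was itself called (adjusted p = 0.0258 and 0.00484).

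The largest falls were mostly of genes of fat cells. Agpat2, an enzyme of triglyceride assembly, had the smallest p of the whole comparison. Its values were 0.70, 0.52 and 0.78 in females and 0.64, 0.58 and 0.51 in males at 0, and -1.14, -0.81 and -0.97 in females and -1.10, -1.16 and -1.15 in males at 10. The sexes moved by nearly the same amount, 1.64 down in females and 1.71 down in males, and Agpat2 fell by 1.68 ± 0.07 on the log2 scale (adjusted p = 3.88e-07). Pnpla3, a lipid droplet acyltransferase and lipase, changed by -2.01 ± 0.12 and Adrb3, the beta-3 adrenergic receptor that starts lipolysis in fat cells, by -1.92 ± 0.12 (both adjusted p = 7.78e-06). Angptl8, an inhibitor of lipoprotein lipase, changed by -1.60 ± 0.18, Acvr1c, the activin receptor ALK7 of fat cells, by -1.60 ± 0.16, and Abcd2, a peroxisomal fatty acid transporter, by -1.57 ± 0.19.

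The other large falls were of mixed kinds. Sfrp4, a secreted Wnt antagonist, changed by -1.98 ± 0.28 and Col6a6, a chain of collagen VI, by -1.76 ± 0.17. LOC102552398, a long noncoding RNA, changed by -2.87 ± 0.41. Alb, the liver's serum albumin, changed most of all, by -3.69 ± 0.48 (adjusted p = 0.000763). It was at 2.74, -0.09 and 0.58 in females at 0 and -3.13, -2.63 and -2.66 at 10, and at 0.08, 1.59 and 2.63 in males at 0 and -1.91, -2.03 and -2.24 at 10. The 3 highest control values were those of the arrays rich in hepatocyte transcripts, and without these arrays Alb still differed by -2.70 (adjusted p = 0.00258). Of the 19 hepatocyte markers 2 fell and 0 rose, with a median difference of -1.63. Called or not, 9 of the 19 were lower at 10 in every array of both sexes. The second that fell, Rgn, a calcium-binding protein of liver also called regucalcin, lost its call without the 3 hepatocyte-rich arrays (-0.83).

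Because these genes moved together, their promoters were searched on both strands, from 250 bases before to 50 bases from the start on, for the receptor's own element and for 4 other motifs. Sequences were credited to RefSeq (build GRCr8) and were found for 422 of the 534 higher genes and 653 of the 828 lower genes. The full estrogen response element, GGTCA and TGACC with 3 bases between, was in 0 promoters of either group and in 0.0255% of all 27457 promoters. It was in 2 of the 11700 promoters of tested genes, so 0 in groups of this size tells nothing about them. A single arm of it, AGGTCA, which may lie inside a full element, was in 9.48% of the higher and 14.55% of the lower group, against 12.7% of the 11700 promoters of tested genes and 15.7% of all. TTTGAA, the cell cycle homology region, was in 13.7% and 9.95% (12.3% of tested genes, 18.1% of all). TTCNNNGAA, the site of STAT proteins, was in 5.21% and 7.35% (6.99% of tested genes, 8.68% of all). The sterol element was in 0 and 0 (0.00855% of tested genes, 0.102% of all), and it too was too rare for this to tell anything. A match is only a match of letters in this window.

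The promoters below are those of the named genes with the largest changes that held such an arm, with the arm in capitals as read on the printed strand (AGGTCA or TGACCT), and that of Csn2, chosen after its values were seen because STAT5 is the known driver of casein genes, with its STAT site in capitals. Glycam1 (chr7:136561250-136561549, minus strand) and Zbtb40 (chr5:154567124-154567423, minus strand) rose, and Abcd2 (chr7:124191153-124191452, minus strand) fell. Csn2 lies at chr14:20601574-20601873 on the plus strand. Zbtb40 held 2 arms in direct repeat, beginning at positions -144 and -137 from the start. In Abcd2 the arm began at position -185, in Glycam1 at base 2 of the transcript, and in Csn2 the STAT site began at position -97. Each is written 5′ to 3′.
Glycam1: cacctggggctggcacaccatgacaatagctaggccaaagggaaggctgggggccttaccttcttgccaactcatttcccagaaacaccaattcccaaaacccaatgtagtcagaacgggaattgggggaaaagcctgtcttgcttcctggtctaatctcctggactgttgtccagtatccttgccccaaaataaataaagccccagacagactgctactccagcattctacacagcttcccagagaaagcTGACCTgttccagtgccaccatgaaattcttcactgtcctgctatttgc
Zbtb40: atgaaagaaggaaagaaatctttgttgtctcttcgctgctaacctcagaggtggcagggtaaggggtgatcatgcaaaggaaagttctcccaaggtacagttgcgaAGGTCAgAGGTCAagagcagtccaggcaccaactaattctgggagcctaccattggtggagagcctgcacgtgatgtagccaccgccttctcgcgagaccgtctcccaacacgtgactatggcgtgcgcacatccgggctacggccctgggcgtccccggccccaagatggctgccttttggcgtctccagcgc
Abcd2: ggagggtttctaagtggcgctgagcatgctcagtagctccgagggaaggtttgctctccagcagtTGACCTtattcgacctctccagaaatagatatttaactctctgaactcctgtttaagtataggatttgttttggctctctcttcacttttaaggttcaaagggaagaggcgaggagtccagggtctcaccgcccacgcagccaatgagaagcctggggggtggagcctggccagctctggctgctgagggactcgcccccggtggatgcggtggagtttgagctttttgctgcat
Csn2: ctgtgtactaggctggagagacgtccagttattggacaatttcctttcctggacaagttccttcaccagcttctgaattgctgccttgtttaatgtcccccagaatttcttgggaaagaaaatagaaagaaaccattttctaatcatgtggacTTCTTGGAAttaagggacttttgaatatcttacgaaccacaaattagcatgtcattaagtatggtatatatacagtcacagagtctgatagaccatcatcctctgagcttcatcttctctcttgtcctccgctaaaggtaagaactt

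Of 30 measured genes of the list of estrogen receptor and its targets, 4 rose and 4 fell, with a median difference of -0.004. Beside Greb1 and Pgr the risers were Ccnd1, the cyclin D1 of early cell cycle (0.49 ± 0.12), and Areg, amphiregulin (2.78 ± 0.77), and neither of these moved the same way in every array. Those that fell were Rasd1, a small GTPase (-0.95 ± 0.12), Igf1, the growth factor made in mammary stroma and fat (-1.04 ± 0.17, with all 3 probe sets lower), Ctsd, the lysosomal protease cathepsin D (-0.48 ± 0.09), and Cxcl12, a chemokine (-0.55 ± 0.11). The receptor gene Esr1 itself differed by -0.46 ± 0.15 (adjusted p = 0.0833) and Prlr, the prolactin receptor, by 0.65 ± 0.22 (adjusted p = 0.0862, 2 of 3 probe sets with the same sign). Neither of these was called in the 12-array fit. Esr1 was called under some of the alternative fits (limma adjusted p between 0.0188 and 0.0435). Prlr was called in the fit with 4 group means (limma adjusted p = 0.0186) and in the one over all 24 arrays (0.0242). It was also called in males alone (1.19, adjusted p = 0.029), which is not a common effect. Without the 3 control arrays 0 members of the list rose and 2 fell.

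Among 14 genes of EGF family ligands and receptors, 4 rose and 1 fell, with a median of 0.20. Epiregulin, Ereg, a ligand, rose by 0.46 ± 0.09 from between -0.34 and -0.06 to between 0.01 and 0.55 in females, and from between -0.13 and 0.02 to between 0.25 and 0.46 in males. Its receptor Egfr rose by 0.81 ± 0.16, more in males (1.28) than in females (0.33), and the sex difference of 0.95 ± 0.16 was called. Nrg4, a neuregulin secreted by fat cells, fell by 0.64 ± 0.07 on the log2 scale. Erbb3, a receptor that partners ErbB2, rose by 0.25 ± 0.07. Areg was the gene in which a common effect said least: its values were 0.11, -0.49 and -0.39 in females at 0 and -0.11, 0.27 and -0.31 at 10, but -2.88, -2.10 and -1.99 in males at 0 and 3.02, 3.32 and 2.75 at 10. Its call was lost on leaving out any 1 of 7 arrays. The female arrays of the doses overlapped and the male arrays of the doses stood far apart. Without the 3 control arrays 0 of the 14 rose, and the adjusted p of Ereg was 0.119 and of Egfr 0.0923.

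Milk genes held several of the largest rises. Of 20 measured, 9 rose and 2 fell, 4 and 1 of these in every array, and the median was 0.60 (1.06 in females and 0.25 in males). Besides Csn2, Glycam1 and Olah, kappa-casein Csn3 rose in every array by 1.82 ± 0.25 (adjusted p = 0.00112). Csn3 was at -0.34, -0.70 and 0.05 in females at 0 and 1.60, 1.59 and 1.48 at 10, and at -2.04, -0.36 and -0.57 in males at 0 and 0.46, 0.73 and 1.10 at 10. The doses did not overlap in either sex, and male replicate 1 was the lowest of the controls. Wap, the whey acidic protein, rose by 2.61 ± 0.64 (4.30 in females and 0.93 in males) and Elf5, the transcription factor of the secretory lineage, by 1.45 ± 0.32, but not in every array. Slc34a2, a phosphate transporter, rose by 1.37 ± 0.34, Fabp3, a fatty acid carrier, by 1.85 ± 0.50 and Mfge8, a milk fat globule protein, by 0.65 ± 0.16. Csn1s1, alpha-casein, and Lalba, the lactose synthase subunit, differed by 0.55 ± 0.19 and 0.81 ± 0.25 (adjusted p = 0.101 and 0.0618). Members that fell were Cidea (-0.86 ± 0.09) and Plin2 (-0.59 ± 0.15), lipid droplet proteins that fat cells make too. With tissue covariates 5 of the 20 rose.

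**Figure D2:**
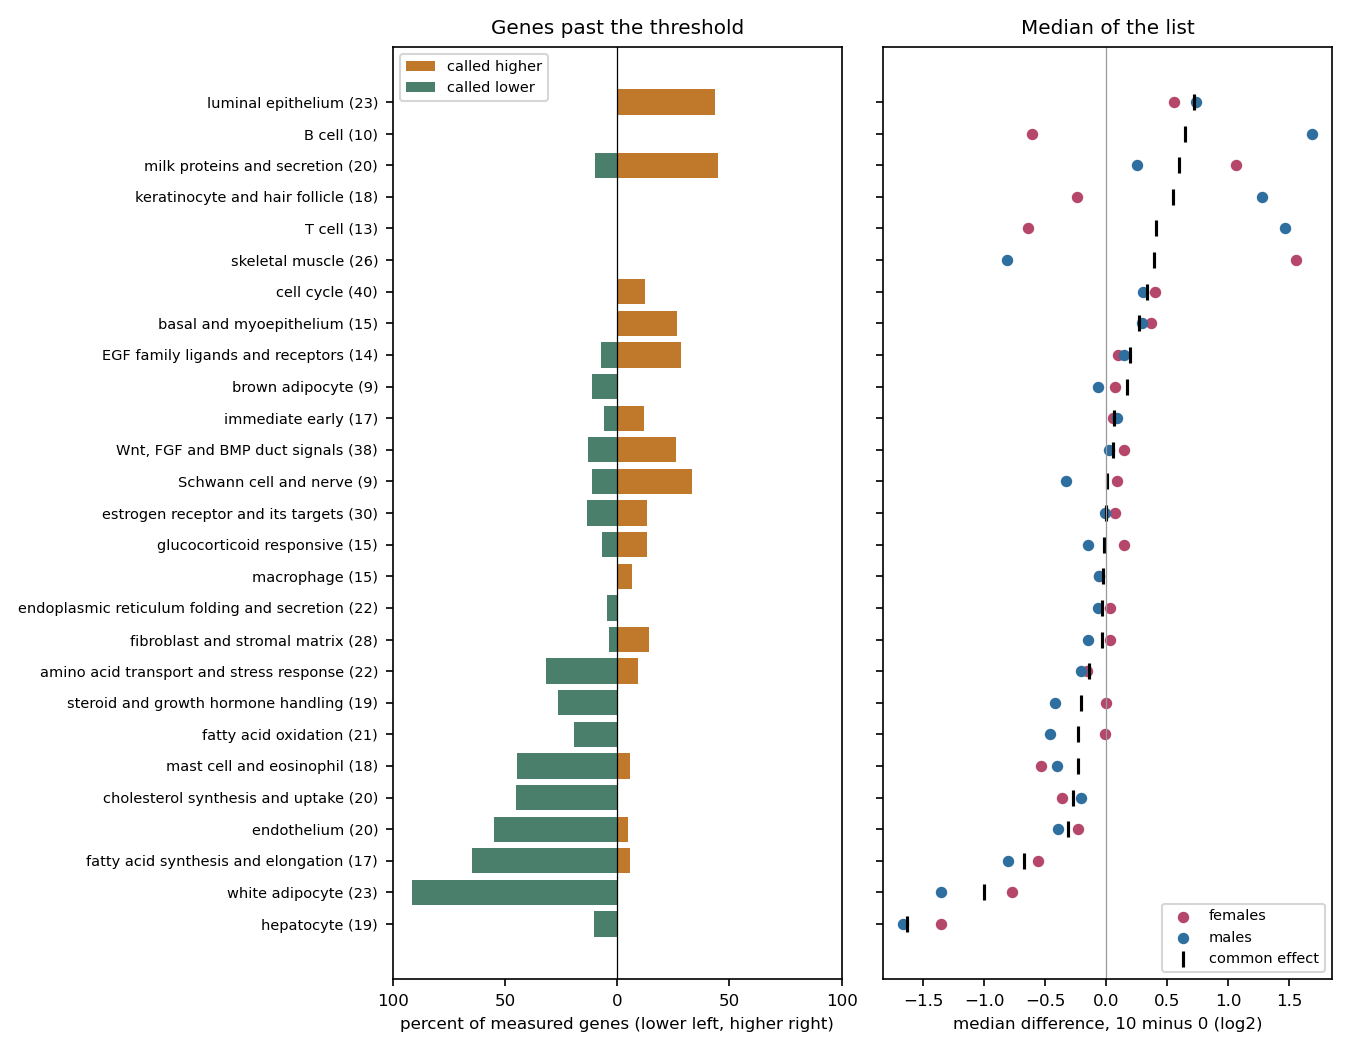
Left, the share of measured genes of each list (number in brackets) called higher (orange, to the right) or lower (green, to the left) at 10; right, the median difference of the list on the log2 scale in females, in males and as common effect. White adipocyte genes have the largest share of falls (21 of 23), milk and luminal genes the largest shares of rises (9 of 20 and 10 of 23), and B cell, T cell, skeletal muscle and keratinocyte lists have medians of opposite sign in the sexes and 0 called genes.

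Part of the epithelial markers rose and none fell. Of 23 luminal markers 10 rose and 0 fell, with a median of 0.72 (0.56 in females, 0.73 in males). Muc1, the apical mucin, was at -0.40, -0.41 and -0.44 in females at 0 and 2.02, 1.04 and 0.58 at 10, and at -1.14, -0.65 and -0.31 in males at 0 and 0.09, 0.23 and 0.97 at 10. The female controls were nearly equal while the arrays at 10 spread widely, and the rise was 1.38 ± 0.24 (adjusted p = 0.00453). Tfap2c, a transcription factor of the luminal lineage, rose by 1.31 ± 0.22 in every array. Cd24 (1.13 ± 0.21), the claudins Cldn3 (0.89 ± 0.23) and Cldn7 (0.84 ± 0.22), E-cadherin Cdh1 (0.84 ± 0.22), the splicing regulator Esrp1 (0.68 ± 0.16) and keratin Krt19 (0.80 ± 0.22) also rose. The call of Cdh1 was lost on leaving out any 1 of 7 of the 12 arrays and that of Esrp1 any 1 of 3. With the beta-actin covariate 5 of the 23 rose, and with tissue covariates 13 did.

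Of 15 basal and myoepithelial markers 4 rose and 0 fell, with a median of 0.27, and 2 rose without the 3 control arrays or with the beta-actin covariate. Tp63, the transcription factor that defines basal cells, rose by 1.19 ± 0.25 and Col17a1, a hemidesmosome collagen, by 0.91 ± 0.20. Tp63 went from -0.11, -0.51 and -0.33 to 0.39, 0.44 and 0.10 in females and from -1.85, -1.65 and -0.53 to 0.34, 0.64 and 0.27 in males. The groups did not overlap, and the male controls ranged most widely. Basal keratins Krt5 (1.15 ± 0.28) and Krt14 (1.26 ± 0.33) rose too, Krt14 by 0.26 in females and 2.26 in males with a called sex difference. The call of Krt5 was lost in both of those fits (adjusted p = 0.0806 and 0.0671) and on leaving out any 1 of 4 arrays. Skin and hair follicle express these keratins as well: of 18 keratinocyte and hair follicle markers 0 were called by limma in the common effect (3 at an unadjusted p under 0.05), their median was -0.24 in females and 1.28 in males, and 8 had a called sex difference. In whole glands, more cells of a type and more RNA per cell cannot be told apart.

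The proliferation genes that passed the test all rose. Of 40 cell cycle genes 5 rose and 0 fell, against 4.28% of all tested probe sets called higher and 5.8% called lower. The median was 0.33 (0.40 in females and 0.30 in males). Cenpf, a kinetochore protein, rose by 0.56 ± 0.15 (adjusted p = 0.0387), Kif23, a kinesin of cell division, by 0.56 ± 0.15 (adjusted p = 0.0382) and Top2a, topoisomerase II, by 0.52 ± 0.15 (adjusted p = 0.0495), each in every array. These calls were lost on leaving out any 1 of 9 of the 12 arrays for Kif23 and Cenpf and any 1 of 10 for Top2a. Kif20a and Mcm7 rose by 0.47 ± 0.12 and 0.37 ± 0.10. Mki67, the Ki-67 antigen, and Aurka, a mitotic kinase, were higher at 10 in every array without passing the threshold (0.53 ± 0.16 and 0.45 ± 0.14, adjusted p = 0.0582 and 0.0601). In the fits without the 3 control arrays or with the beta-actin covariate 0 of the 40 were called, and the median stayed positive.

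White adipocyte genes formed the most uniform group. Of 23 measured, 21 fell and 0 rose, 20 of them in every array, with a median of -1.0 (-0.77 in females, -1.36 in males). Rbp4, the retinol carrier, was at 0.78, 0.57 and 0.64 in females and 0.61, 0.50 and 0.59 in males at 0, and at -0.48, -0.74 and -0.48 in females and -0.67, -1.0 and -0.69 in males at 10. The arrays of a dose lay close together in both sexes, and Rbp4 fell by 1.29 ± 0.08 on the log2 scale (adjusted p = 6.5e-06). Dgat2, the last enzyme of triglyceride synthesis, changed by -1.35 ± 0.09. The fat cell regulators Pparg (-1.27 ± 0.12) and Cebpa (-0.88 ± 0.10, with all 5 probe sets lower), the lipases Lipe (-1.09 ± 0.12) and Pnpla2 (-1.01 ± 0.14), the glycerol channel Aqp7 (-1.25 ± 0.16), the glucose transporter Slc2a4 (-0.98 ± 0.16) and the hormone gene Adipoq (-0.70 ± 0.10) were also lower in every array. Fabp4, a marker carried by all fat cells, fell less (-0.58 ± 0.05). Lep, leptin, differed by -0.78 ± 0.24 (adjusted p = 0.0651). Between 18 and 20 of the 23 fell in the fits without the 3 control arrays or with the covariates.

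**Figure D3:**
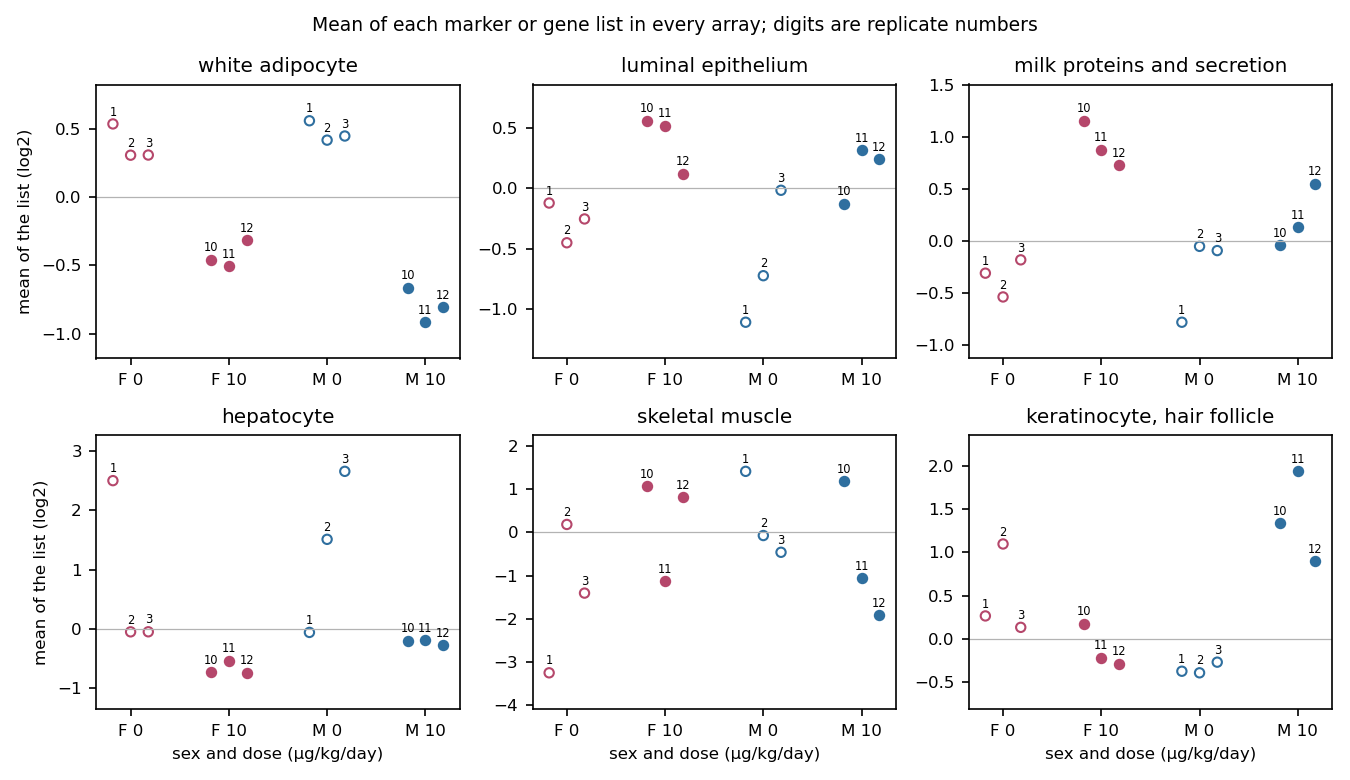
Mean of the list in each of the 12 arrays for 6 lists, on the deposited log2 scale, with the replicate number above each symbol (open at 0, filled at 10; F female, M male; dose in µg/kg/day). White adipocyte means are 0.31 to 0.56 at 0 and -0.92 to -0.31 at 10, without overlap. Hepatocyte means are high in 3 control arrays, and those of the other controls also lie above all arrays at 10. Skeletal muscle means are not ordered by dose.

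Most fatty acid synthesis genes fell too. Of 17 measured, 11 fell and 1 rose, 9 and 1 in every array, with a median of -0.67. Acss2, which makes acetyl-CoA from acetate, was at 0.42, 0.44 and 0.39 in females at 0 and -0.64, -0.61 and -0.64 at 10, and at 0.11, 0.41 and 0.31 in males at 0 and -0.49, -0.78 and -0.62 at 10. The female values were almost identical within each dose, and Acss2 fell by 0.97 ± 0.07 on the log2 scale (adjusted p = 1.47e-05). Slc25a1, the mitochondrial citrate carrier, changed by -0.89 ± 0.08, Fasn, fatty acid synthase, by -0.85 ± 0.09, Acaca, acetyl-CoA carboxylase, by -1.04 ± 0.17 and Elovl6, an elongase, by -0.92 ± 0.16. Scd2, a desaturase, was the member that rose (0.27 ± 0.06), while its relative Scd fell (-0.38 ± 0.07). Without the 3 control arrays 7 of the 17 fell and with tissue covariates 6. In fatty acid oxidation 4 of 21 fell and 0 rose, with a median of -0.01 in females and -0.46 in males. The mitochondrial enzymes Decr1 (-0.54 ± 0.09) and Hadhb (-0.36 ± 0.08) fell in every array, and 0 of the 21 were called without the 3 control arrays or with tissue covariates.

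Some cholesterol genes fell and none rose. Of 20 measured, 9 fell and 0 rose, 4 in every array, and the median was -0.27. Insig1, the sensor protein that holds the sterol regulatory proteins in the endoplasmic reticulum, was at 0.40, 0.47 and 0.52 in females and 0.53, 0.33 and 0.59 in males at 0, and at -0.91, -1.04 and -0.84 in females and -0.66, -0.74 and -0.82 in males at 10. The gap between doses was wider in both sexes than the range within a dose, and the change was -1.31 ± 0.07 (adjusted p = 2.78e-06). Nsdhl, a late enzyme of the pathway, changed by -0.82 ± 0.08, Pmvk, an early one, by -0.40 ± 0.06 and Fdps, farnesyl diphosphate synthase, by -0.46 ± 0.08. Insig1 and Nsdhl kept their calls in every alternative fit of both sexes that was run. Without the 3 control arrays 2 of the 20 fell, and with tissue covariates 4.

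Genes of amino acid supply changed in both directions. Of 22 measured, 7 fell and 2 rose, all 9 in every array, with a median of -0.14. In the fit without the 3 control arrays, and in that with tissue covariates, 3 fell and 1 rose. The glutamine carrier Slc1a5 was at 0.57, 0.42 and 0.51 in females and 0.34, 0.31 and 0.27 in males at 0, and at -0.65, -0.37 and -0.22 in females and -0.55, -0.53 and -0.51 in males at 10. The male arrays of a dose were nearly equal, the female ones less so, and the change was -0.87 ± 0.07 (adjusted p = 3.37e-05). The serine synthesis enzymes Phgdh (-0.74 ± 0.11), Psat1 (-0.81 ± 0.11) and Psph (-0.26 ± 0.06) fell together, as did asparagine synthetase Asns (-0.74 ± 0.13), the leucine carrier Slc43a1 (-0.73 ± 0.11) and the stress factor Ddit3 (-0.32 ± 0.06). Slc7a7 (0.70 ± 0.10) and Slc7a5 (0.39 ± 0.09), light chains of other exchangers, rose. Of 22 genes of folding and secretion in the endoplasmic reticulum 1 fell, Pdia3 (-0.18 ± 0.05, lost on leaving out any 1 of 10 arrays), and 0 rose.

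Signals between stroma and ducts changed in both directions. Of 38 Wnt, FGF and BMP genes 10 rose and 5 fell, 6 and 4 in every array, with a median of 0.05. The secreted Wnt antagonists went opposite ways: Sfrp4 fell, and Sfrp2 rose by 0.81 ± 0.12 (adjusted p = 0.00134), from between -0.37 and -0.18 in females and -0.41 and -0.01 in males to between 0.09 and 0.65 in females and 0.52 and 0.99 in males. The ligand Wnt5b (0.78 ± 0.15), the co-receptor Lrp6 (0.51 ± 0.09) and the antagonist Dkk3 (0.64 ± 0.13, 3 of 4 probe sets) rose, and the receptor Fzd4 fell (-1.04 ± 0.19). Bmp4, a BMP ligand of stroma and fat, changed by -0.93 ± 0.14 while Msx1, a homeobox gene of the BMP pathway, rose by 0.74 ± 0.12. Fgf7, the stromal growth factor for epithelium, changed by -0.91 ± 0.15. With those 3 control arrays left out, 3 rose and 2 fell, and Msx1 was then not called.

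Growth hormone and steroid genes fell where they changed. Of 19 measured, 5 fell and 0 rose, with a median of 0.00 in females and -0.42 in males. Igfbp3, the main carrier of IGF-1, was at 0.50, 0.28 and 1.04 in females at 0 and -1.54, -0.45 and -0.64 at 10, and at 0.69, 0.41 and 0.19 in males at 0 and -1.06, -0.83 and -0.89 at 10. The doses did not overlap in either sex, and the change was -1.42 ± 0.18 (adjusted p = 0.000764). The growth hormone receptor Ghr changed by -1.09 ± 0.29, mostly in males (-1.82 against -0.36 in females). Sts, steroid sulfatase, which frees estrogens from their sulfates, changed by -0.63 ± 0.12, and Cyp1b1, which hydroxylates estradiol, by -0.61 ± 0.17. In the fit without the 3 control arrays, and in that with tissue covariates, 2 of the 19 fell, and Sts was then not called (adjusted p = 0.117 and 0.105). Among 15 glucocorticoid responsive genes 2 rose and 1 fell, among them Cebpd (0.59 ± 0.14), a factor of fat cells and involution. None of the 15 passed limma's test in the same fits, where Cebpd had an adjusted p of 0.127 and 0.241, and its call was also lost without male replicate 11 at 10. Among 17 immediate early genes 2 rose and 1 fell. Atf3, a stress factor, rose in every array by 0.89 ± 0.14 (adjusted p = 0.0628 with tissue covariates).

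Vessel and mast cell markers held more falls than rises. Of 20 endothelial markers 11 fell and 1 rose, 8 and 1 in every array, with a median of -0.31. Esam, an adhesion molecule of endothelium, was at 0.19, 0.16 and 0.11 in females at 0 and -0.32, -0.24 and -0.11 at 10, and at 0.57, 0.41 and 0.39 in males at 0 and -0.23, -0.49 and -0.22 at 10. The doses did not overlap in either sex, and Esam changed by -0.58 ± 0.09 (adjusted p = 0.00173). Egfl7, an angiogenic factor, changed by -0.56 ± 0.07, the receptor Tie1 by -0.42 ± 0.07 and the apelin receptor Aplnr by -0.69 ± 0.13. Pecam1, the defining marker CD31, changed by -0.32 ± 0.07. Mmrn1, which marks lymphatic endothelium, rose by 0.99 ± 0.23. In the fits without the 3 control arrays or with tissue covariates 2 of the 20 fell, and these were Egfl7 and Esam.

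Among 18 markers of mast cells and eosinophils, 8 were lower and 1 was higher past the threshold, 7 and 1 of them in every array. Hdc, which makes histamine, was at 0.46, 0.50 and 0.52 in females at 0 and -0.75, -0.73 and -0.41 at 10, and at 0.80, 0.16 and 0.19 in males at 0 and -0.56, -1.01 and -0.59 at 10. The sexes changed by the same amount, -1.12 and -1.11, and the common change was -1.12 ± 0.12 (adjusted p = 0.000275). The mast cell protease Cpa3 changed by -0.88 ± 0.12, the tryptase Tpsab1 by -1.08 ± 0.18, the factor Gata2 by -0.54 ± 0.08 and the IgE receptor chain Ms4a2 by -0.96 ± 0.16, whereas Mcpt9, another protease, rose by 0.76 ± 0.13. When the 3 hepatocyte-rich arrays were left out, 5 of the 18 fell. Other leukocyte lists held few calls: 1 of 15 macrophage markers, Cd14 (0.66 ± 0.17, lost on leaving out any 1 of 5 arrays), and 0 of 10 B cell and 0 of 13 T cell markers by limma (2 and 0 at an unadjusted p under 0.05), whose medians were -0.60 and -0.64 in females and 1.68 and 1.46 in males.

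Matrix and nerve markers were mixed. Of 28 fibroblast and matrix genes 4 rose and 1 fell, with a median of -0.03. Of all tested probe sets 4.28% were called higher and 5.8% lower. Fibronectin Fn1 (0.32 ± 0.07), the crosslinking enzyme Loxl1 (0.34 ± 0.09, lost on leaving out any 1 of 6 arrays), Thbs2 (0.59 ± 0.13) and Timp1 (0.40 ± 0.09) rose, dermatopontin Dpt fell (-0.66 ± 0.11), and the collagens Col1a1 and Col1a2 each differed by -0.20 ± 0.06 (adjusted p = 0.0657 and 0.0631). Leaving those 3 arrays out, 0 of the 28 were called. Of 9 Schwann cell and nerve genes 3 rose and 1 fell. S100b, also made by fat cells, changed by -0.97 ± 0.15, and its call was lost without the 3 control arrays (-0.82). Sox10, also a factor of mammary epithelium, rose by 0.97 ± 0.18. With tissue covariates 1 of the 9 rose and 1 fell. Of 9 brown adipocyte genes 1 fell, Cidea, and of 26 skeletal muscle genes 0 were called by limma (1 at an unadjusted p under 0.05), their median being 1.56 in females and -0.81 in males.

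**Figure D4:**
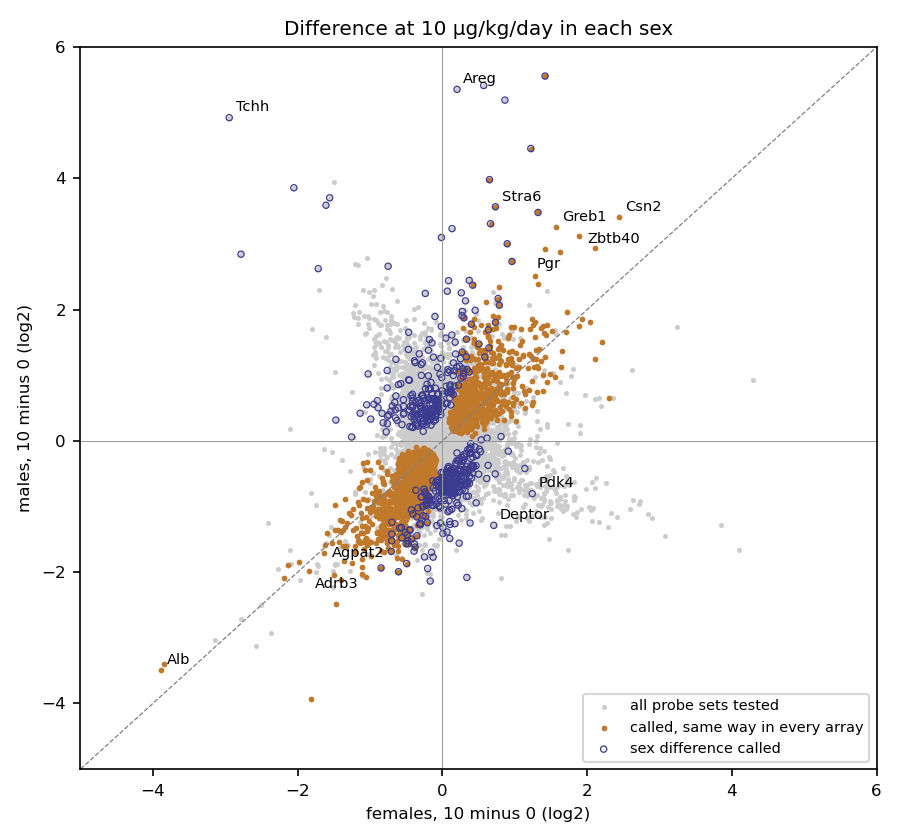
Difference at 10 in females (horizontal axis) and in males (vertical axis), log2, 1 point per probe set; grey, all tested; orange, called and moving the same way in every array; blue circles, sex difference called. Orange points fill the 2 quadrants of equal sign, as their choice required, and many lie on the male side of the dashed line of equality, while Areg (0.20 in females, 5.35 in males) and Tchh (-2.94 and 4.92) lie far from it.

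The size of the shared response was larger in males. Among the 2051 probe sets called and moving the same way, the male difference was the larger in 1582 and the female in 469, and the median size was 0.57 in males and 0.39 in females. This is a description, since both sexes chose the probe sets. Fitted alone, the 6 female arrays gave 127 called probe sets (0.409%) and the 6 male arrays 3876 (12.5%), and 86 were called in both with the same sign. Over all tested probe sets 53.6% had the same sign in both sexes, and over those called in males alone 73.4% had. Across probe sets the female and male differences, which share no arrays, correlated at Pearson r = 0.20 and Spearman rho = 0.15. Probe sets are not independent and share each array's composition, so this carries no p.

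The sex difference of the effect was tested itself, as the male minus the female difference. It was called in 514 probe sets (1.66%), 249 with the male difference above and 265 below, and 356 of the 514 had opposite signs in the sexes. Of the 2051 shared probe sets 73 had a called sex difference. The count ranged from 24 to 610 when 1 array was left out, being lowest without female replicate 12 at 10 or male replicate 11 at 10, and it was 65, 66, 46, 56, 243, 265 and 103 without female replicates 2 and 3 at 0, female replicate 10 at 10, male replicates 1 and 3 at 0 and male replicates 10 and 12 at 10. It was 34 with tissue covariates and 1 with the beta-actin covariate. The beta-actin difference itself was higher in every male array at 10 than in every male control, as given above. In females it went the other way over a narrower range. It was 0.02, 0.06 and 0.03 at 0 and -0.05, 0.01 and -0.05 at 10. Its part was not tested further.

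The 12 arrays at 0.1 and 1 were not used to choose the shared probe sets. In females the median over the 829 higher probe sets was -0.35, 0.09 and -0.03 in the arrays at 0.1 and -0.004, -0.16 and -0.12 at 1, against -0.18 to -0.14 at 0 and 0.13 to 0.25 at 10. In males it was -0.18, 0.0007 and 0.004 at 0.1 and 0.09, 0.05 and 0.16 at 1, against -0.37 to -0.15 at 0 and 0.18 to 0.29 at 10. The ends were fixed by the choice of probe sets. The arrays at the middle doses did not enter that choice, but it set the ends apart. Arrays without any dose effect could therefore also lie between them, and a place in between shows no graded response. Male arrays at 1 lay between the controls and the top dose, and of the female arrays at 1, 1 lay within the range of the controls. For the 1222 lower probe sets the female medians were 0.03, -0.10 and -0.24 at 0.1 and 0.04, 0.20 and -0.08 at 1, against 0.13 to 0.25 at 0 and -0.23 to -0.13 at 10. Female replicate 6 at 0.1 was thus lower than the arrays at 10, and the female arrays were not ordered by dose. The male medians were 0.006, 0.03 and -0.008 at 0.1 and -0.11, -0.08 and -0.12 at 1, between those at 0 (0.24 to 0.32) and 10 (-0.36 to -0.23).

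**Figure D5:**
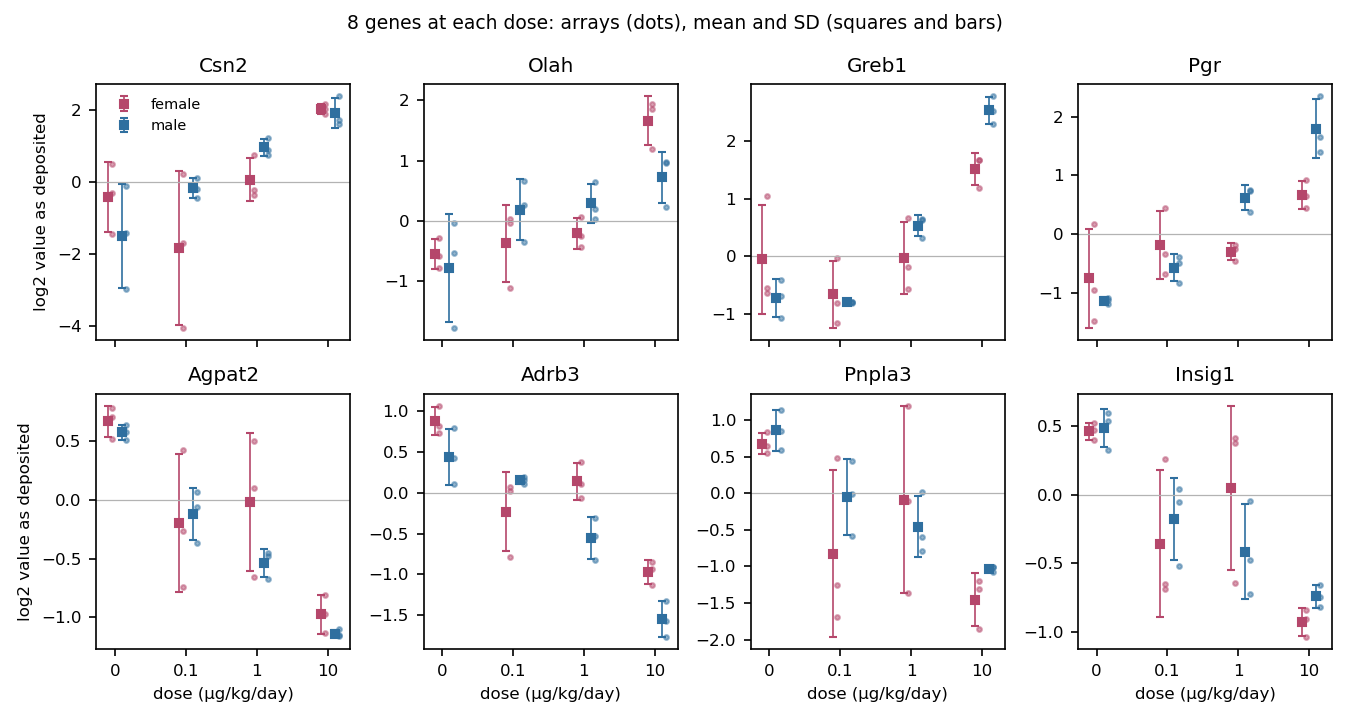
8 of the named genes at each dose (horizontal axis, µg/kg/day, evenly spaced) on the deposited log2 scale; dots are arrays, squares the mean and bars the SD of 3 arrays, females red and males blue. Agpat2 and Adrb3 are lower at 1 than at 0 in the male means, and Greb1 and Pgr are higher at 1 in the male means, while in Agpat2, Pnpla3 and Insig1 the female bars at 0.1 and 1 are wider than the male ones.

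Single genes differed in their course over the doses. Csn2 had means of -1.84 ± 2.14 at 0.1 and 0.06 ± 0.60 at 1 in females, and of -0.17 ± 0.27 and 0.96 ± 0.25 in males (SD, n = 3). The female arrays at 0.1 were the most spread of these 4 groups. Greb1 stood at -0.66 ± 0.58 and -0.03 ± 0.62 in females and at -0.80 ± 0.01 and 0.53 ± 0.18 in males. Zbtb40 stood at -0.06 ± 0.37 and -0.27 ± 0.03 in females and at -0.09 ± 0.12 and -0.03 ± 0.09 in males, close to its controls at both lower doses in both sexes. Agpat2 stood at -0.19 ± 0.59 and -0.02 ± 0.59 in females and at -0.12 ± 0.22 and -0.54 ± 0.12 in males, and in males the mean was lower at each higher dose.

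Of the 2051 shared probe sets, 1533 were called whichever 1 of the 12 arrays was left out. Of these, 644 (443 genes) were also called under all of 9 alternative fits of both sexes, and 0 of the called probe sets reversed sign under any. Csn2, Csn3, Olah, Prr27, Gjb2, Zbtb40 and Tmem35a were in that group, as were all 10 of the largest falls, and so were Igf1, Igfbp3, Insig1, Acss2, Fasn, Rbp4, Dgat2, Muc1, Tfap2c, Tp63, Bmp4, Sfrp2, Slc1a5, Hdc and Esam. Greb1, Pgr, Stra6 and Glycam1 were not. All these fits reuse the arrays at 0 and 10 that gave the calls. A reversed sign was thus unlikely from the start, and the 0 reversals are no separate evidence of stability.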

How the data were processed

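The values are the signed log2 values of 24 one-colour Affymetrix rat arrays as deposited in the series' value table; the submitters' processing notes name GCOS, while for summarization, normalization and log base the method was not given in the sources used here. The base was taken as 2. Values nearest 0 mirrored each other within sex in 45.3% of probe sets in females and 41.9% in males, and the other probe sets did not show this, so how the values were centred is unknown. Of 31099 probe sets, 57 Affymetrix controls were left out. 20826 tested probe sets carried 1 gene symbol of the platform annotation, 436 several and 9780 none; their symbols were checked by gene number against RefSeq for 20758.

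The 12 arrays at 0 and 10 were fitted with limma 3.58.1 (R 4.3.3) with sex and dose as terms, and the sex difference in 4 group means; Benjamini-Hochberg adjustment covered all 31042 probe sets. Scripts were tested on simulated data. In a list, a gene was represented by the probe set with the largest SD over the 12 arrays at 0.1 and 1. Named were the 10 largest rises and falls called in every array, up to 4 members per list, Esr1, Pgr, Prlr, Areg, Greb1 and Csn2, and the 5 largest sex differences in each direction; further list members named in the text were chosen after their values were seen. The comparison, its lists and its rules were chosen with earlier results of these data known. The number of arrays limits the precision.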

Additional observations from a re-analysis of the deposited data

Results flagged for a closer look

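Differences between the sexes in the effect of the top dose were called by limma for 16 of the named genes, tested as the male minus the female difference (12 arrays, 3 per group, Benjamini-Hochberg adjusted). With 3 arrays a group, no array was tested as an outlier. 5 of the genes belong to the shared response and moved the same way in every array. The male rise exceeded the female one by 2.83 ± 0.45 in Stra6 (adjusted p = 0.0258), by 2.11 ± 0.22 in Tmem35a (adjusted p = 0.00484) and by 0.95 ± 0.16 in Egfr (adjusted p = 0.0293). The male fall was the deeper one in Sts, steroid sulfatase, with a sex difference of -0.72 ± 0.13 (adjusted p = 0.0319), and in Egfl7, with -0.39 ± 0.08 (adjusted p = 0.0467).

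The other genes did not move the same way in every array. Areg differed by 0.20 in females and 5.35 in males, a sex difference of 5.15 ± 0.36 (adjusted p = 0.000607). 4 genes of skin and hair follicle were higher in males at 10 and lower or near 0 in females: Tchh, trichohyalin, had a sex difference of 7.87 ± 1.17 (-2.94 in females, 4.92 in males), Krt25, a hair keratin, of 5.91 ± 1.27, Sprr1a, a cornified envelope protein, of 5.2 ± 0.82 and Lgals7, galectin 7, of 2.21 ± 0.38. Clca1, a secreted regulator of chloride channels, had one of 4.84 ± 0.87 (0.57 in females, 5.41 in males). Keratinocyte marker means were 0.90 to 1.94 in the males at 10 and -0.40 to 1.10 in the other 9 arrays, and their part in these differences was not tested.

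The largest differences the other way were those of Sult1e1, the estrogen sulfotransferase, with -2.42 ± 0.48 (0.34 in females, -2.08 in males), Pdk4, a kinase that holds back glucose oxidation, with -2.05 ± 0.34 (1.24 and -0.80), Deptor, an mTOR inhibitor, with -2.0 ± 0.20 (0.71 and -1.29), Il1r2, a decoy interleukin-1 receptor, with -1.97 ± 0.40 (-0.17 and -2.14) and Col8a1, a collagen VIII chain, with -1.64 ± 0.34 (-0.13 and -1.77).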

How the results depend on the processing

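The common effect had 3128 called probe sets, and the count moved to 921 without the 3 control arrays with hepatocyte transcripts, 1118 with hepatocyte and skeletal muscle covariates, 1943 with the beta-actin covariate, 127 in females alone and 344 where a raw p below 0.05 and a 2-fold change were asked for. Leaving out 1 array gave 1979 to 3581, and the other fits, males alone included, gave 2870 to 4361. Probe sets moving the same way in every array numbered 4451 without the 3 control arrays, where fewer arrays must be cleared, and 2581 to 3484 with 1 array left out. The sex difference, with 514 calls, had 1989 with array weights, 843 without the 3 control arrays, 34 with tissue covariates, 1 with the beta-actin covariate and 24 to 610 with 1 array left out. A random replicate block gave 3883 common calls, with a consensus correlation of -0.098. This block joins a female and a male array of the same dose and pairs nothing across the doses. The fixed replicate block within dose, which pairs the sexes, gave 83 sex differences. Deviations of same-numbered arrays of the sexes from their group means correlated at -0.23, -0.16 and -0.11 for replicates 1, 2 and 3. For replicates 10, 11 and 12 they correlated at 0.45, 0.56 and -0.25. The labels give these arrays only a number in common, and whether they share more was not tested. Of list medians over 0.1 in size, sign reversed for brown adipocyte (-0.029 without the 3 control arrays, -0.013 with tissue covariates), B cell (-0.20 with tissue covariates, -0.25 with beta-actin), T cell (-0.36 and -0.28), skeletal muscle (-0.33 without the 3 control arrays, -0.18 with tissue covariates) and hepatocyte (0.14 with the covariate made of these genes). Medians nearer 0 also changed sign, for estrogen receptor targets (0.042 with beta-actin), glucocorticoid genes (0.041 without the 3 control arrays, 0.057 with beta-actin), nerve genes (-0.112 and -0.070 without the 3 control arrays and with tissue covariates) and fibroblast genes (0.045 and 0.119). Of the other results, 2105 were the same, 298 lost and 31 gained a call and 75 moved. Where no cause is given, the cause was not tested.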

Other observations

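Among the 443 genes called in every alternative fit of both sexes and whichever array was left out, several of no list here stood out, chosen after their values were seen. Higher at 10 were Stat5a, the transcription factor that carries the prolactin signal (0.50 ± 0.08, adjusted p = 0.00313 in limma), Muc4, a membrane mucin (1.69 ± 0.25, adjusted p = 0.00181), Msln, mesothelin (1.57 ± 0.15, adjusted p = 0.000105), Agtr2, an angiotensin receptor (1.35 ± 0.16, adjusted p = 0.000522), and Extl1, a heparan sulfate enzyme (1.52 ± 0.10, adjusted p = 1.04e-05). Lower were genes of fat storage and supply: Plin4, a lipid droplet coat protein (-1.27 ± 0.13), Dgat1, a triglyceride enzyme (-0.92 ± 0.10), Mgll, a monoglyceride lipase (-1.06 ± 0.13, all 4 probe sets lower), and Pc, pyruvate carboxylase (-1.05 ± 0.09). Vegfa (-0.65 ± 0.10) and Vegfb (-1.19 ± 0.16), growth factors of vessels, and the basement membrane genes Col15a1 (-1.32 ± 0.13), Nid2 (-0.98 ± 0.08) and Col4a1 (-0.42 ± 0.05) were lower too.

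The casein genes stand together on rat chromosome 14 in the RefSeq gene order (build GRCr8). Of 21 genes, 10 on each side of Csn2 and Csn2 itself, 12 had a tested probe set. Csn3, Prr27 and Csn2 moved the same way in every array (1.82 ± 0.25, 1.89 ± 0.25 and 2.92 ± 0.45). Beside them Sult1d1, a sulfotransferase, rose by 1.02 ± 0.22 (limma adjusted p = 0.014) but not in every array, and none of the other 8 was called.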
